A study of Mus musculus with 6 samples.

Results

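Mitochondrial ribosomal proteins are the nucleus-encoded proteins of the ribosome that works inside mitochondria. They were taken as every gene whose symbol begins with *Mrpl* (large subunit) or *Mrps* (small subunit) followed by a number, provided that the normalized count averaged 10 or more over the 6 libraries. All 78 symbols of this form passed that minimum, 49 of the large and 29 of the small subunit, among 26264 genes in the table and 17404 tested. The RNA came from hematopoietic stem cells (HSCs) sorted from bone marrow as Lineage- Sca-1+ c-Kit+ CD150+ CD48- cells, 1 library per mouse. The 3 WT libraries (replicates 2, 3 and 4) came from C57Bl/6 mice and the 3 *Irf1-/-* libraries (replicates 2, 3 and 4) from mice of the whole-body knockout strain B6.129S2-Irf1tm1Mak/J. All mice were female, 8 weeks old and untreated, so each comparison asks what differs in unstimulated HSCs when IRF1, an interferon-responsive transcription factor, is missing. Because the allele was inherited by every cell, loss in the HSC and loss in its surroundings cannot be told apart. Reads on genes numbered 59658080, 45332573 and 43267486 in WT replicates 2, 3 and 4, and 43138521, 57281017 and 45129929 in *Irf1-/-* replicates 2, 3 and 4.

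The mitochondrial ribosome makes a small set of proteins encoded in mitochondrial DNA, all of them core parts of the oxidative phosphorylation machinery. Its RNA components come from mitochondrial DNA, while its proteins are encoded in the nucleus, made in the cytosol and imported, and many have no counterpart in bacterial ribosomes. In blood stem cells mitochondrial activity is kept low at rest, and it increases when the cells begin to divide and differentiate.

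*Irf1* itself was counted first. Normalized counts were 10122, 11120 and 12058 in WT replicates 2, 3 and 4, and 9267, 9524 and 9287 in *Irf1-/-* replicates 2, 3 and 4. All 3 knockout libraries lay below all 3 WT libraries, but the log2 fold change of −0.24 (SE 0.088) did not pass the test (limma, Benjamini-Hochberg adjusted *P* = 0.170). It did not pass under any of 17 other processing choices either. The count is a sum over the whole gene and takes in reads from exons that a targeted allele can keep, so it does not check the genotype labels on its own. The cell type labels were checked on marker genes. All 9 HSC markers listed were tested, with the stem cell factor receptor gene *Kit* the most abundant at a mean count of 82379, while *Cd48*, whose protein was gated out, had a mean of 328. Markers of other blood cells were not uniformly low. The 4 globin genes were at 0 in all libraries, but the granulocyte and monocyte marker *Lyz2* had a mean of 26988. Per kilobase of transcript *Lyz2* stood at 20554, above *Kit* at 15718. Purity was therefore not settled by these markers.

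The members stood at moderate counts that varied little between mice. Their mean normalized counts ran from 515 for *Mrpl43* to 6436 for *Mrpl4*. The median coefficient of variation among members was 6.25% across the WT mice and 9.88% across the *Irf1-/-* mice. Levels can be compared between genes only per length of transcript, here taken as the longest annotated transcript of each gene. On that scale the median member had 1905 normalized counts per kilobase, 1951 in the large and 1615 in the small subunit. The large-subunit genes *Mrpl42*, *Mrpl28* and *Mrpl4* were highest, at 6523, 5596 and 5008 per kilobase. The lowest of that subunit were *Mrpl47* at 223, *Mrpl43* at 425 and *Mrpl1* at 439. In the small subunit the 3 highest were *Mrps16* at 3752, *Mrps12* at 3277 and *Mrps18a* at 2972 per kilobase, and the 3 lowest were *Mrps25* at 379, *Mrps5* at 596 and *Mrps31* at 681. The lowest values belong in part to genes with a long annotated transcript, such as *Mrps25* with 6073 bases, and the order depends on which transcript is taken.

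Most members had a lower level in *Irf1-/-* HSCs, by a small amount. The log2 fold change was below 0 for 72 of 78 members (92.3%), against 50.4% of all tested genes. Its median over members was −0.16, with quartiles of −0.21 and −0.098, against a median of −0.0028 and quartiles of −0.17 and 0.20 over all tested genes. As a level, the median member in *Irf1-/-* HSCs had 89.6% of its WT mean. The summed count of the 78 members was 216491, 219078 and 206447 in WT replicates 2, 3 and 4, and 176653, 210030 and 189961 in *Irf1-/-* replicates 2, 3 and 4. These sums overlapped between genotypes: *Irf1-/-* replicate 3 lay above WT replicate 4. The group means were 214005 ± 6673 in WT and 192215 ± 16802 in *Irf1-/-* HSCs (SD, n = 3), 89.8% of the WT level. As a share of all normalized counts the members took 0.441%, 0.429% and 0.444% in the WT libraries and 0.384%, 0.424% and 0.405% in the *Irf1-/-* libraries, in the same order, and on this scale all 3 knockout libraries lay below all 3 WT libraries. In bulk samples, fewer cells of a kind that holds more of these transcripts and less of the RNA in each cell cannot be told apart.

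Few of these differences passed the test. At an adjusted *P* under 0.05 (limma, Benjamini-Hochberg over all 17404 tested genes), 260 genes (1.49%) were lower and 301 (1.73%) higher in *Irf1-/-* HSCs. Among the members 1 was lower, *Mrpl12*, and 0 were higher, a share of calls near that of all genes. At an unadjusted *P* under 0.05, where 8.07% of all genes were lower and 8.38% higher, 17 members (21.8%) were lower and 0 higher. This count rested on single libraries: it was 5 without *Irf1-/-* replicate 2, against 6.17% of all genes, 6 without WT replicate 2 (against 5.58%), 7 without WT replicate 3 (5.10%), 8 without *Irf1-/-* replicate 4 (5.10%) and 31 without *Irf1-/-* replicate 3 (10%). It also moved with the processing, to 9 without the variance trend (5.26%), 11 with a length and GC trend removed (10.3%) and 27 with median centring (10.7%). The count models gave 1 lower member with edgeR (*Mrpl12*), where 266 genes (1.53%) were lower and 310 (1.78%) higher. With DESeq2, where 655 genes (3.76%) were lower and 671 (3.86%) higher, 4 members (5.13%) were lower (*Mrpl12*, *Mrpl18*, *Mrps15* and *Mrps28*), a share near that of all genes. The number of higher members was 0 with either model. Counting genes whose 3 *Irf1-/-* values all lay below the 3 WT values, 21 members (26.9%) separated in that direction against 9.27% of all genes, and 0 members separated upward against 10.6% of all genes. The split between lower and higher calls over all genes depended on the scaling: 46.3% of calls were lower with the deposited size factors, and 58.1% (374 lower, 270 higher) when each library was centred on its median gene. The number of called members was 1 on either scale.

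**Figure D1:**
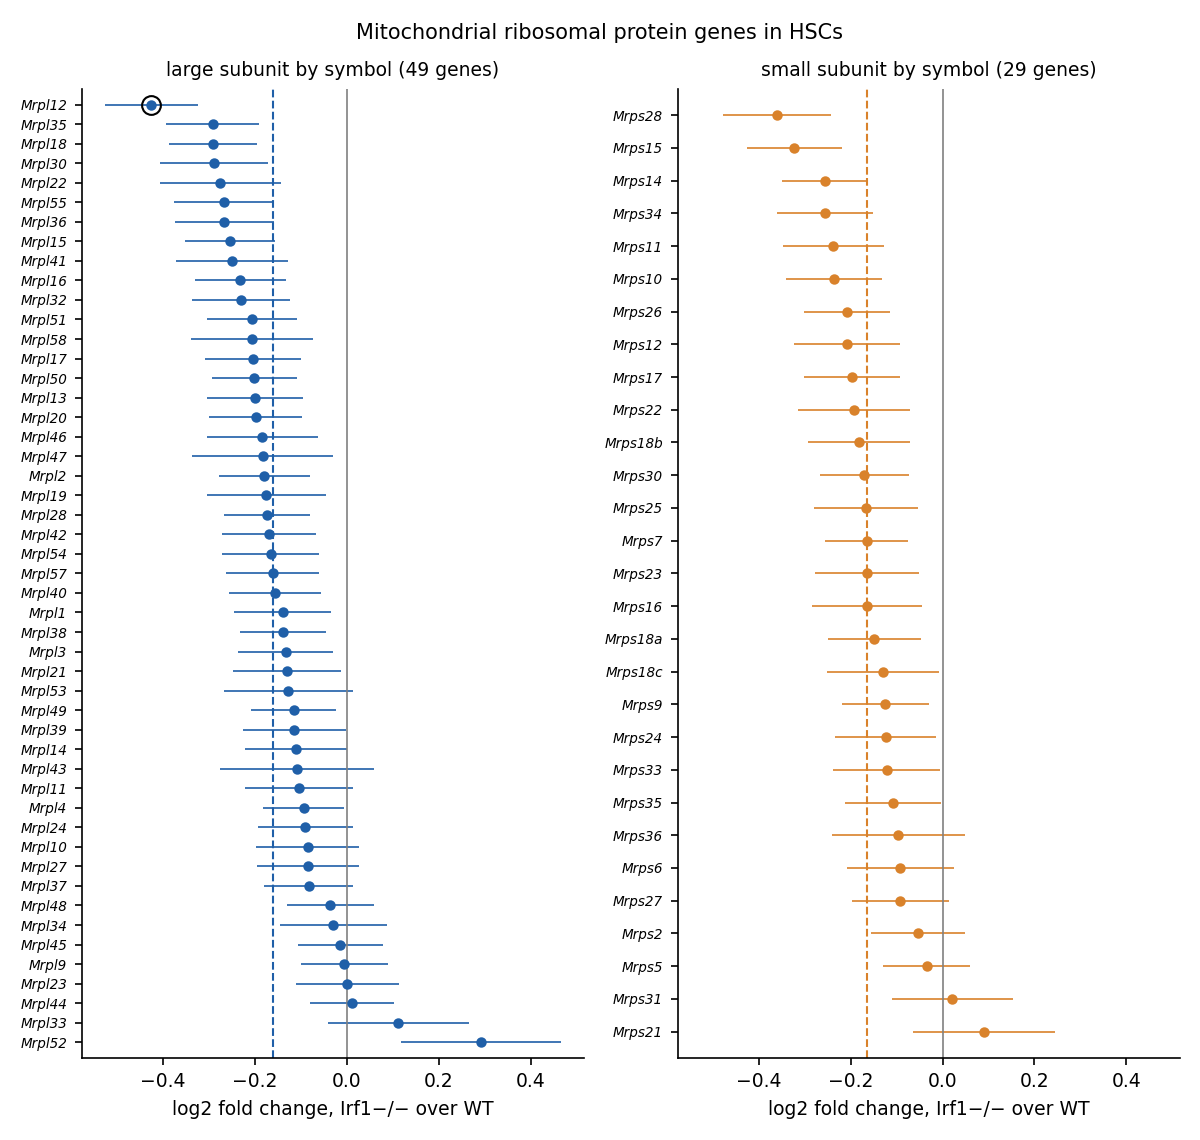
The log2 fold change (*Irf1-/-* minus WT, horizontal axis) of each of the 78 members is plotted by subunit, with the SE as a bar, a dashed line at each subunit's median and a ring around the member that passed the test. Most points of both subunits lie left of 0, with medians of −0.16 and −0.17, and *Mrpl12* at −0.42 has the ring; *Mrpl23*, *Mrpl44*, *Mrpl9*, *Mrps31* and *Mrpl45*, next to 0, change sign with the scaling.

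The large and small subunits had nearly the same median difference between genotypes. Of the large-subunit genes 45 of 49 had a log2 fold change below 0, with a median of −0.16, and of the small-subunit genes 27 of 29, with a median of −0.17. The medians differed by 0.0041. That difference was −0.025 without WT replicate 3 and −0.016 without *Irf1-/-* replicate 4, both still small beside the medians. The summed large-subunit count was 142630, 143637 and 136448 in WT replicates 2, 3 and 4, and 116414, 138872 and 125431 in the matching *Irf1-/-* replicates. For the small subunit the sums were 73861, 75442 and 69999 in the WT libraries, and 60239, 71158 and 64531 in the *Irf1-/-* libraries. In both subunits *Irf1-/-* replicate 3 stood inside the WT range and the other *Irf1-/-* libraries below it. The mean level in *Irf1-/-* HSCs was 90.1% of WT for the large and 89.3% for the small subunit.

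Dividing the large-subunit sum by the small-subunit sum removes whatever moved both subunits in a library. This ratio was 1.93, 1.90 and 1.95 in WT replicates 2, 3 and 4, and 1.93, 1.95 and 1.94 in *Irf1-/-* replicates 2, 3 and 4. The means of 1.93 ± 0.023 and 1.94 ± 0.0096 (SD, n = 3) differed by less than the spread between WT mice, and the values overlapped. A pair of *Mrps* symbols name proteins that sit in the large subunit, *Mrps30* and *Mrps18a*, and *Mrps36* names a protein that belongs to the oxoglutarate dehydrogenase complex rather than to the ribosome. Their log2 fold changes were −0.17, −0.15 and −0.097, with adjusted *P* of 0.432, 0.536 and 0.824 (limma). Without *Irf1-/-* replicate 2 *Mrps18a* was −0.076 and *Mrps36* −0.041, and *Mrps36* was −0.047 without WT replicate 4, −0.15 without WT replicate 3 and −0.18 without *Irf1-/-* replicate 3. With a trend on transcript length and GC content removed, *Mrps36* was −0.0033. With these 3 genes placed by position or removed, the ratio was 2.25, 2.23 and 2.28 in the WT and 2.26, 2.29 and 2.26 in the *Irf1-/-* libraries, again with overlapping groups.

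Members followed a shared order from library to library. *Irf1-/-* replicate 2 held the lowest knockout value for 63 of 78 members (80.8%, against 35.5% of all tested genes). This was not particular to the members: the share was 98.7% for cytosolic ribosomal proteins and 84.1% for nuclear oxidative phosphorylation subunits. *Irf1-/-* replicate 3 held the highest for 73 members (93.6%, against 39.6%). Compared with the WT libraries, *Irf1-/-* replicate 2 lay below all 3 for 69 members (88.5%, against 28.4% of all tested genes), replicate 4 for 59 (75.6%, against 27.9%) and replicate 3 for 22 (28.2%, against 26.1%). For *Irf1-/-* replicate 3 the share of members below the WT libraries was therefore near that of all genes, and the lower member levels came from replicates 2 and 4. The mean deviation of members from their own 6-library mean, on the log2 scale, was 0.10, 0.085 and 0.035 in WT replicates 2, 3 and 4, and −0.20, 0.060 and −0.086 in the *Irf1-/-* replicates. Both subunits followed this order in the knockout libraries, with large-subunit deviations of −0.20, 0.064 and −0.083 and small-subunit deviations of −0.20, 0.055 and −0.092. Over all tested genes the mean deviation was −0.066, −0.078 and 0.11 in WT replicates 2, 3 and 4. In *Irf1-/-* replicates 2, 3 and 4 it was 0.075, −0.090 and 0.045. The libraries above 0 over all genes, WT replicate 4 and *Irf1-/-* replicates 2 and 4, were thus those with the lowest member deviations. The part of this library-wide pattern, which crosses genotype, in the member levels was not tested.

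The counts that rest on separation between groups depended on single libraries. Without *Irf1-/-* replicate 3, 57 members lay below all WT values, against 18% of all genes. Without WT replicate 4, whose values were the lowest of the WT libraries for 45 members, the count was 38, against 19.8%. The count was 23 without WT replicate 2 (against 12.4% of all genes), 26 without WT replicate 3 (13%), 21 without *Irf1-/-* replicate 2 (13.3%) and 22 without *Irf1-/-* replicate 4 (12%). The median log2 fold change of members was −0.096 when *Irf1-/-* replicate 2 was left out, less than with all libraries by a factor over 1.5, and −0.21 when *Irf1-/-* replicate 3 was. It was below 0 whichever library was left out.

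**Figure D2:**
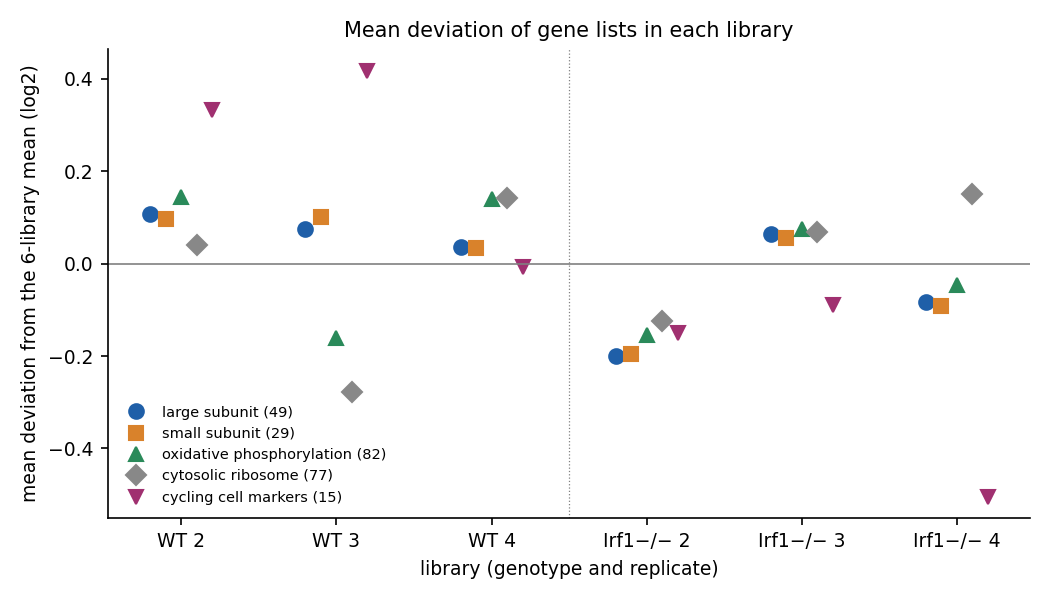
Mean deviation from each gene's 6-library mean (log2, vertical axis) is plotted for every library, for the large subunit, the small subunit, cytosolic ribosomal proteins, oxidative phosphorylation subunits and cycling-cell markers. Large and small subunits run side by side, lowest in *Irf1-/-* replicate 2 at −0.20, while cytosolic ribosomal proteins are lowest in WT replicate 3 at −0.28.

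The called member, *Mrpl12*, encodes the protein of the ribosomal stalk that recruits translation factors, and it also binds the mitochondrial RNA polymerase. Its normalized counts were 5896, 6488 and 5526 in WT replicates 2, 3 and 4, and 3946, 4939 and 4484 in *Irf1-/-* replicates 2, 3 and 4. All 3 knockout values were below all 3 WT values. The means were 5970 ± 485 and 4456 ± 497 (SD, n = 3), a level of 74.6% of WT and a log2 fold change of −0.42 (SE 0.102, limma adjusted *P* = 0.0375). The call depended on single libraries: the adjusted *P* was 0.105 without WT replicate 2, 0.152 without WT replicate 3, 0.163 without *Irf1-/-* replicate 2 and 0.127 without *Irf1-/-* replicate 4. It was also lost when limma's variance trend was turned off (0.306), and it held in 12 of 17 alternatives, with adjusted *P* over all of them from 0.00211 to 0.306 and log2 fold changes all below 0.

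The rest of the stalk lay nearer 0. *Mrpl10* encodes the protein that anchors MRPL12 to the ribosome, and its counts were 3905, 4178 and 3462 in WT and 3227, 4196 and 3498 in *Irf1-/-* replicates 2, 3 and 4. These values overlapped, with a log2 fold change of −0.084 (limma adjusted *P* = 0.796). That value was −0.023 without WT replicate 3, −0.16 without WT replicate 4, −0.0019 without *Irf1-/-* replicate 2 and −0.19 without *Irf1-/-* replicate 3. Across the 5 stalk genes (*Mrpl10*, *Mrpl11*, *Mrpl12*, *Mrpl53* and *Mrpl54*) all 5 had a log2 fold change below 0. The summed level, 85.4% of WT, includes *Mrpl12* at 74.6%. The others, *Mrpl10*, *Mrpl11*, *Mrpl53* and *Mrpl54*, stood at 94.6%, 93.7%, 92.2% and 89.1% of WT. The median log2 fold change of the 5 stalk genes was −0.13. That median was −0.0019 with 3 of 5 genes below 0 without *Irf1-/-* replicate 2, −0.20 without *Irf1-/-* replicate 3, and between −0.092 and −0.16 when any other library was left out. It was −0.061 with the length and GC trend removed. The 7 genes of the central protuberance, the crown of the large subunit, all had values below 0, with a median of −0.18 and a sum at 88.2% of WT; without WT replicate 3 the median was −0.11 and without *Irf1-/-* replicate 3 it was −0.29. The 8 genes around the rim of the exit tunnel, where new proteins leave the ribosome, had 6 values below 0, a median of −0.10 and a sum at 93.7% of WT. The exit tunnel median was −0.067 without WT replicate 2, −0.019 without *Irf1-/-* replicate 2 and −0.16 without *Irf1-/-* replicate 3, and −0.058 with the length and GC trend removed. In limma 0 exit tunnel genes passed the test, 0 had an unadjusted *P* under 0.05, and edgeR and DESeq2 called 0.

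After *Mrpl12*, the members with the lowest log2 fold changes were *Mrps28*, *Mrps15*, *Mrpl35*, *Mrpl18* and *Mrpl30*, none of which passed the test in limma. *Mrps28*, related to a bacterial protein that binds incoming mRNA, had counts of 1936, 1936 and 2222 in WT and 1398, 1792 and 1571 in *Irf1-/-* replicates 2, 3 and 4. The groups were separate, with a log2 fold change of −0.36 (limma adjusted *P* = 0.125). *Mrps15*, an RNA-binding protein of the small subunit, had 2670, 2683 and 2390 in WT and 1957, 2278 and 1963 in *Irf1-/-* libraries in the same order. These groups were also separate, with a log2 fold change of −0.32 (limma adjusted *P* = 0.120).

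In the large subunit, *Mrpl18* of the central protuberance had counts of 4631, 4766 and 4410 in WT and 3460, 4205 and 3656 in *Irf1-/-* replicates 2, 3 and 4. The groups did not overlap, and the log2 fold change was −0.29 (limma adjusted *P* = 0.131). *Mrpl35*, a conserved large-subunit protein, had 2712, 2834 and 2654 in WT and 2071, 2491 and 2156 in *Irf1-/-* libraries, without overlap and with a log2 fold change of −0.29 (limma adjusted *P* = 0.152). *Mrpl30* had 2433, 2142 and 2189 in WT and 1668, 2167 and 1728 in *Irf1-/-* libraries. Here *Irf1-/-* replicate 3 stood inside the WT range, and the log2 fold change was −0.29 (limma adjusted *P* = 0.230). In DESeq2 the adjusted *P* was 0.0463 for *Mrps28*, 0.0377 for *Mrps15* and 0.0464 for *Mrpl18*. *Mrps28* overlaps 3 annotated genes and *Mrpl18* overlaps *Tcp1*, so their reads are less certain, since no use of strand was stated for the counting. The 78 members lie on 17 chromosomes, and 25 of them overlap another annotated gene; *Mrpl12*, *Mrps15*, *Mrpl35* and *Mrpl30* do not.

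**Figure D3:**
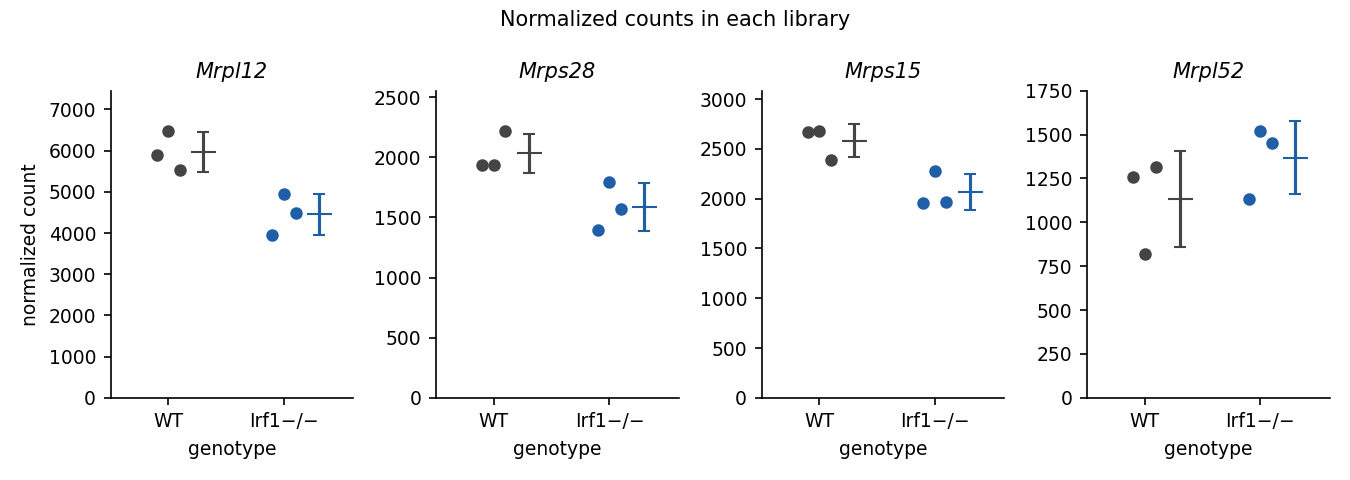
Normalized counts (vertical axis) of *Mrpl12*, *Mrps28*, *Mrps15* and *Mrpl52* are plotted as 1 point for each of the 3 WT and 3 *Irf1-/-* libraries, with a line at each group mean and the SD as error bar. For *Mrpl12* every *Irf1-/-* library, from 3946 to 4939, lies below every WT library, from 5526 to 6488.

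At the other end, 6 members had a log2 fold change above 0 and none of them passed the test. *Mrpl52*, a large-subunit protein found only in mitochondrial ribosomes, had counts of 1260, 820 and 1318 in WT and 1133, 1523 and 1449 in *Irf1-/-* replicates 2, 3 and 4. The groups overlapped, with the low value in WT replicate 3 and a log2 fold change of 0.29 (limma adjusted *P* = 0.462) that was 0.075 without that library. *Mrpl33*, a small conserved protein of the large subunit, had 2317, 1432 and 2042 in WT and 1896, 2287 and 1974 in *Irf1-/-* libraries. *Mrps21*, a conserved small-subunit protein, had 1465, 1005 and 1387 in WT and 1192, 1581 and 1305 in *Irf1-/-* libraries. All 3 genes shared the drop in WT replicate 3. For *Mrpl33* and *Mrps21* the log2 fold changes of 0.11 and 0.089 became −0.088 and −0.078 without WT replicate 3. *Mrps31*, *Mrpl44* and *Mrpl23* stood at 0.021, 0.011 and 0.0013. With each library centred on its median gene these 3 were below 0, at −0.0096, −0.020 and −0.030, and *Mrps31* also was under quantile normalization (−0.0026).

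Transcript length was examined because WT replicate 3 was low for *Mrpl52*, with 412 bases, and *Mrps21*, with 488, although *Mrpl33*, low there too, has 2178. The 39 members up to the median length of 1216 bases had a mean log2 deviation of 0.053 in WT replicate 3, and the 39 longer members 0.12. The median log2 fold changes of these groups were −0.17 and −0.16, with 36 of 39 below 0 in each. With a trend on transcript length and GC content removed over all genes that have a length, they were −0.11 and −0.13.

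Some members have functions of their own. *Mrpl45* encodes the large-subunit protein that holds the tunnel exit against the inner membrane, and its counts were 3269, 3267 and 3051 in WT and 3000, 3400 and 3103 in *Irf1-/-* replicates 2, 3 and 4. The values overlapped, and the log2 fold change of −0.014 (limma adjusted *P* = 0.969) turned to 0.015 under quantile normalization. *Mrpl58* encodes a peptidyl-tRNA hydrolase that became part of the large subunit and frees chains from stalled ribosomes. Its log2 fold change was −0.21 (limma adjusted *P* = 0.504) and ran from −0.33 to −0.14 over 17 alternatives. *Mrps12*, a protein of the decoding center, had counts of 3178, 3210 and 2890 in WT and 2263, 3058 and 2763 in *Irf1-/-* replicates 2, 3 and 4, overlapping through *Irf1-/-* replicate 3, with a log2 fold change of −0.21 (limma adjusted *P* = 0.413) that was −0.088 without *Irf1-/-* replicate 2. *Mrps18a*, *Mrps18b* and *Mrps18c* are 3 homologs of the same bacterial protein that sit at different places of the ribosome. Their log2 fold changes were −0.15, −0.18 and −0.13 with limma adjusted *P* of 0.536, 0.474 and 0.680, and none passed the test. Single libraries moved them: *Mrps18a* was −0.076 without *Irf1-/-* replicate 2, *Mrps18b* −0.11 without WT replicate 3, and *Mrps18c* −0.24 without WT replicate 3, −0.21 without *Irf1-/-* replicate 3, −0.067 without WT replicate 4 and −0.085 without WT replicate 2 or *Irf1-/-* replicate 4. With the length and GC trend removed *Mrps18c* was −0.030.

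Proteins counted as conserved from the bacterial ribosome were set beside those counted as mitochondria-specific, which here take in *Mrps18a* and *Mrps18b*, extra homologs of a bacterial protein. In the large subunit 28 of 30 conserved genes had a log2 fold change below 0 (median −0.18), and so had 20 of 22 mitochondria-specific genes (median −0.15). In the small subunit 15 of 16 conserved genes did (median −0.16) and 13 of 14 mitochondria-specific genes (median −0.17). These medians were not tested against each other. Leaving out *Irf1-/-* replicate 2 brought these 4 medians to −0.11, −0.093, −0.11 and −0.071, and leaving out WT replicate 3 brought the last to −0.11. The specific lists include 5 subunit genes without an *Mrp* symbol (*Dap3*, *Ptcd3*, *Chchd1*, *Aurkaip1* and *Gadd45gip1*), which the symbol rule misses. All 5 had values below 0, with a median of −0.18 that was −0.078 without *Irf1-/-* replicate 2. The lowest was *Ptcd3*, a small-subunit RNA-binding protein, at −0.24 (limma adjusted *P* = 0.199), and 0 of the 5 were called by limma, edgeR or DESeq2, with 1 at an unadjusted *P* under 0.05.

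Genes that build and serve the mitochondrial ribosome were listed by function. Of 26 assembly factors 21 had a log2 fold change below 0, with a median of −0.097, or −0.15 without WT replicate 4 and −0.053 without *Irf1-/-* replicate 2. The lowest was *Rbfa*, which matures the small subunit, at −0.30 (limma adjusted *P* = 0.177), followed by the rRNA methyltransferase gene *Mrm3* at −0.29 and *Mtg1*, a GTPase gene of large-subunit assembly, at −0.28. Limma, edgeR and DESeq2 called 0 assembly factors, and 4 were lower at an unadjusted *P* under 0.05. Of the 16 translation factors listed, 15 were in the table, 7 of them below 0, with a median of 0.00042. The sign of this median is not settled: it was −0.031 with median centring and −0.0034 under quantile normalization, and ran from −0.074 to 0.045 when 1 library was left out. Among these *Lrpprc*, which keeps mitochondrial mRNAs stable, stood at −0.27 (limma adjusted *P* = 0.156), and the elongation factor genes *Gfm1* and *Tsfm* at −0.27 and −0.24. The *Tsfm* value depends on WT replicate 3, with a count of 2373 against 1959 and 2003 in WT replicates 2 and 4. In this list too, 0 genes were called by limma, edgeR or DESeq2, with 2 lower at an unadjusted *P* under 0.05.

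Of the 20 enzymes that charge mitochondrial tRNAs, 18 had a log2 fold change below 0, with a median of −0.097 that was −0.18 without WT replicate 4 or without *Irf1-/-* replicate 3. *Mars2*, for methionine, had counts of 1484, 1473 and 1257 in WT and 1046, 1104 and 995 in *Irf1-/-* replicates 2, 3 and 4. Every knockout value lay below every WT value, with a log2 fold change of −0.42 that did not pass the test in limma (adjusted *P* = 0.0765). The list had 0 calls in limma and edgeR, 1 in DESeq2 (*Mars2*), and 3 lower genes at an unadjusted *P* under 0.05.

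Of 12 genes for the copying and transcription of mitochondrial DNA, 3 had a log2 fold change below 0, with a median of 0.033, and 0 were called by limma, edgeR or DESeq2 or had an unadjusted *P* under 0.05. The median was 0.0018 with median centring, 0.021 under quantile normalization and 0.081 with the length and GC trend removed. It was 0.057 without *Irf1-/-* replicate 2, 0.022 without *Irf1-/-* replicate 3, and 0.00017 with 6 of 12 below 0 without *Irf1-/-* replicate 4. *Polrmt*, the mitochondrial RNA polymerase, had counts of 5341, 5306 and 4885 in WT and 5717, 6075 and 5780 in *Irf1-/-* replicates 2, 3 and 4. Its groups were separate, knockout above WT, with a log2 fold change of 0.18 (limma adjusted *P* = 0.315). *Lonp1*, a protease of the mitochondrial matrix, had separate groups in the other direction, at −0.077 (limma adjusted *P* = 0.721). *Tfam*, which packages mitochondrial DNA, stood at −0.11. Its counts overlapped, at 3515, 3969 and 3648 in WT and 3224, 3565 and 3488 in *Irf1-/-* replicates 2, 3 and 4. This value depends on WT replicate 3 and *Irf1-/-* replicate 2. No symbol with the mt- prefix of mitochondrially encoded genes was in the table, and the products of this ribosome and its RNAs were not analysed here.

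Among 9 regulators of mitochondrial genes, 4 had values below 0, with a median of 0.044. Its sign is not settled: it was 0.013 with median centring, 0.078 under quantile normalization, −0.061 without WT replicate 4, 0.017 without WT replicate 2, 0.067 without WT replicate 3, 0.068 without *Irf1-/-* replicate 2 and 0.024 without *Irf1-/-* replicate 3. *Ppargc1a*, a coactivator of mitochondrial biogenesis, had low counts of 229, 151 and 287 in WT and 416, 376 and 426 in *Irf1-/-* replicates 2, 3 and 4. The knockout values all lay above the WT values, and the log2 fold change was 0.91 (limma adjusted *P* = 0.0533, called in DESeq2). *Nrf1*, a transcription factor of nuclear genes for mitochondrial proteins, stood at −0.20 (limma adjusted *P* = 0.291), and *Gabpa*, *Yy1* and *Myc* at −0.094, 0.12 and 0.073. For *Gabpa* and *Myc* WT replicate 4 was the lowest WT library, at 3122 and 21152. For *Yy1* *Irf1-/-* replicate 3 was the highest knockout library, at 1658. The values of *Gabpa*, *Yy1* and *Myc* depend on these libraries, and their groups overlapped. Limma and edgeR called 0 of the 9 and DESeq2 called 1, with 1 lower and 1 higher at an unadjusted *P* under 0.05.

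Cytosolic ribosomal proteins and the nuclear subunits of oxidative phosphorylation were compared because each shares a feature with the members, the ribosome or the organelle. Of 77 cytosolic ribosomal protein genes 32 (41.6%) had a log2 fold change below 0, with a median of 0.025 that turned to −0.0062 with median centring, to −0.079 without WT replicate 3 and to −0.024 without *Irf1-/-* replicate 4. It was higher in other cases, at 0.065 under quantile normalization, 0.082 with the length and GC trend removed, 0.046 without WT replicate 2, 0.12 without WT replicate 4 and 0.12 without *Irf1-/-* replicate 2, and was 0.016 without *Irf1-/-* replicate 3, so its sign is not settled. Their mean log2 deviation was lowest in WT replicate 3 (−0.28), a library where the members stood at 0.085. Within the knockout group, however, *Irf1-/-* replicate 2 was lowest for 76 of 77 cytosolic genes, as it was for most members, but *Irf1-/-* replicate 4 was the highest knockout library for 62 of them against 5 of 78 members. WT replicate 4 was the lowest WT library for 0 of the 77 and for 45 members. Limma, edgeR and DESeq2 called 0 of them, with 1 lower and 5 higher at an unadjusted *P* under 0.05. Of 82 oxidative phosphorylation genes 59 (72.0%) were below 0, with a median of −0.097 that ran from −0.20 without WT replicate 3 to −0.031 without *Irf1-/-* replicate 2. Limma called 1 of them lower, the respiratory complex gene *Cox5a* at −0.44 (adjusted *P* = 0.0422, and between 0.0593 and 0.177 without any 1 of WT replicates 2, 3 and 4 or *Irf1-/-* replicates 2 and 4). edgeR called 1, DESeq2 called 7, 19 were lower at an unadjusted *P* under 0.05, and 23 had all knockout values below all WT values, against 4, 17 and 21 members by the last 3 counts. Their summed level was 89.8% of WT, as for the members. They shared with the members a highest knockout value in *Irf1-/-* replicate 3, for 77 of 82 genes.

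Markers of dividing cells had log2 fold changes below 0, as most members did. Their mean log2 deviation was 0.33, 0.42 and −0.0073 in WT replicates 2, 3 and 4. In *Irf1-/-* replicates 2, 3 and 4 it was −0.15, −0.090 and −0.50. For members it was 0.10, 0.085 and 0.035 in the WT and −0.20, 0.060 and −0.086 in the *Irf1-/-* libraries. In both lists WT replicate 4 was the lowest WT library and *Irf1-/-* replicate 3 the highest knockout library. The lowest knockout library was replicate 4 for the markers and replicate 2 for the members. All 15 genes listed had a log2 fold change below 0, with a median of −0.50, and limma called 5 of them lower (*Mki67*, *Top2a*, *Cdk1*, *Aurkb* and *Tyms*). None of these 5 calls held without WT replicate 2 (adjusted *P* from 0.0571 to 0.178), WT replicate 3 (0.0652 to 0.152) or *Irf1-/-* replicate 4 (0.0525 to 0.218). All 15 stayed below 0 whichever library was left out, with medians from −0.36 to −0.60. edgeR called 7 and DESeq2 14 of the 15, and all 15 had an unadjusted *P* under 0.05 in limma. The summed counts of the list were 240462, 266547 and 192892 in WT replicates 2, 3 and 4, and 176452, 183267 and 151985 in *Irf1-/-* replicates 2, 3 and 4. The groups were separate, at 73.1% of the WT level, and the replicative helicase gene *Mcm6* was the most abundant, with a mean of 39148. As a share of all normalized counts, the markers took 0.490%, 0.522% and 0.414% in the WT and 0.384%, 0.370% and 0.324% in the *Irf1-/-* libraries in the same order, again separate. The part of cycling cells in the lower member levels was not tested.

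Markers of other blood cells gave these values. The 4 megakaryocyte genes were all below 0 (median −0.73), and limma called 2 of them, *Pf4* at −1.11 and *Gp1bb* at −0.90. Each of these calls held in 16 of 17 alternatives. The sums of the 4 genes were 47040, 59984 and 45022 in WT and 40206, 24550 and 35519 in *Irf1-/-* replicates 2, 3 and 4. *Itga2b* had the highest count of them, not corrected for length, with a mean of 31200. Of 6 erythroid markers the 4 globin genes were at 0 in all libraries, and *Klf1* was called lower at −0.72 (limma). That call was lost without WT replicate 2 or 3 or *Irf1-/-* replicate 2 or 3, with adjusted *P* from 0.0576 to 0.119. The 7 tested of 8 granulocyte and monocyte markers had 0 calls in limma, edgeR and DESeq2 and 0 at an unadjusted *P* under 0.05, with *Lyz2* the most abundant at a mean of 26988 and *Ly6g* too low to test. Their sums were 24376, 31500 and 30380 in WT and 27790, 33400 and 29633 in *Irf1-/-* libraries. WT replicate 4 had *S100a8* and *S100a9* at 1033 and 1246, far above the other libraries, whose highest values were 110 and 131. *Ly6g*, below the count minimum, was at 46.3 in WT replicate 4 and at most 1.07 in the other libraries. The mean log2 deviation of the 7 tested markers was −0.75, −0.54 and 1.35 in WT replicates 2, 3 and 4. In *Irf1-/-* replicates 2, 3 and 4 it was −0.35, −0.13 and 0.42. The 5 tested B cell markers, led by *Cd79b* at a mean of 2800, and the 4 tested T and NK cell markers, led by *Nkg7* at 2714, had 0 calls in limma and edgeR and 1 gene lower at an unadjusted *P* under 0.05, *Nkg7*, which DESeq2 called. The 4 stromal and endothelial markers, led by *Cxcl12* at a mean of 75.1, had 0 calls in limma, edgeR and DESeq2 and 0 at an unadjusted *P* under 0.05. Of the 9 HSC markers 7 had a log2 fold change above 0, with a median of 0.25. In limma 5 were higher and 1 lower at an unadjusted *P* under 0.05. The list took 0.396%, 0.391% and 0.391% of all normalized counts in WT replicates 2, 3 and 4. In *Irf1-/-* replicates 2, 3 and 4 it took 0.419%, 0.437% and 0.418%, all above the WT libraries. Limma called *Ly6a* lower (−0.43) and *Procr* (0.52) and *Fgd5* (0.83) higher. The *Procr* and *Fgd5* calls each held in 16 of 17 alternatives. The *Ly6a* call was lost without WT replicate 3 or *Irf1-/-* replicate 2 or 4, with adjusted *P* of 0.0772, 0.115 and 0.111. The part of any of these cell types in the member levels was not tested.

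Because most members had log2 fold changes of the same sign, the promoters were searched for letters bound by known regulators of mitochondrial genes. RefSeq promoter windows, from 250 bases before to 50 bases after the start, were found for 69 members (75 windows) on GRCm38.p6, and all 32851 windows of the table served as the background. The members without a window were *Mrpl4*, *Mrpl13*, *Mrpl15*, *Mrpl19*, *Mrpl38*, *Mrpl54*, *Mrps28*, *Mrps34* and *Mrps35*. Both strands were searched. The NRF1 motif GCATGCGC was in 8 member windows (10.7%, against 2.71% of all windows). The ETS motif CCGGAAG, read by GABPA among others, was in 26 (34.7%, against 8.86%), and the YY1 motif AAGATGGCG in 8 (10.7%, against 1.40%). The IRF motif AANNGAAA was in 13 member windows (17.3%, against 23.9%). In 3 member windows matches of different motifs overlapped. Members with any of the first 3 motifs had a median log2 fold change of −0.14 (36 genes), and those with none of them −0.17 (33 genes). For the IRF motif the medians were −0.17 with a match (12 genes) and −0.15 without (57 genes). A match is a description and not a site or a cause. Shown here are the 100 bases before the start on the plus strand for the called member, for the member with the lowest log2 fold change among those that hold the NRF1, then the ETS, then the YY1 motif in these bases (each gene taken once), and for the member with the highest log2 fold change, with matches in capitals. The genes were chosen after their values were seen. Over 17 alternatives *Mrpl22* ran from −0.41 to −0.14, *Mrpl36* from −0.34 to −0.17 and *Mrpl52* from 0.075 to 0.42. *Mrpl12* (chr11:120484537-120484636, log2 fold change −0.42) holds none of the 3 motifs. *Mrpl22* (chr11:58171564-58171663, −0.27) holds an ETS and an NRF1 match that begin 53 and 33 bases before the start, *Mrps26* (chr2:130563657-130563756, −0.21) an ETS match at 14 bases, *Mrpl36* (chr13:73330909-73331008, −0.27) a YY1 match at 31 bases and *Mrpl52* (chr14:54426809-54426908, 0.29) an ETS match at 47 bases. The last 3 matches and that of NRF1 are on the reverse strand.
Mrpl12: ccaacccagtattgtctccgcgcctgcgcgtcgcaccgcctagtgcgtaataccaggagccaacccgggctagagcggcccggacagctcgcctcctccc
Mrpl22: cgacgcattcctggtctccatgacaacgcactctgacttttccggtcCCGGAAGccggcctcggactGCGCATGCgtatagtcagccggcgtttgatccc
Mrps26: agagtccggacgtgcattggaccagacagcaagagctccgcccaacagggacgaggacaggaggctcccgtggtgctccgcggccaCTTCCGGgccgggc
Mrpl36: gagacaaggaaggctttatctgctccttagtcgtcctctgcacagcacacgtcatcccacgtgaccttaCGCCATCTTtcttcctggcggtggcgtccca
Mrpl52: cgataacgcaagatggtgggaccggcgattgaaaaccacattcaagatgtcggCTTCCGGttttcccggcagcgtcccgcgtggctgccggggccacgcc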

How the data were processed

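The deposited table gives 1 signal value per gene and library, a DESeq2 normalized count: per the labels and methods, the authors used Trim Galore for trimming, HISAT2 for alignment (to mm39, by the submitters' processing notes) and Htseq-count for gene counts, and divided each library by 1 size factor on Galaxy. Whole read counts were recovered from these values (tolerance 0.01). Genes averaging 10 or more normalized counts were tested on log2(count + 1) with limma 3.58.1 (variance trend on) in R 4.3.3, WT against *Irf1-/-*, with Benjamini-Hochberg adjustment over all tested genes and a threshold of 0.05. Alternatives were edgeR 4.0.16, DESeq2 1.42.0, other pseudocounts, filters and scalings, a replicate block, a length and GC correction, and each library left out. Genes were named by role, by size of change, by level per kilobase or by being called. The members and lists were chosen with earlier results of these data known. Fits were checked on simulated data in which genes varied independently and with the same dispersion. That check does not cover genes that move together by library, as the members did.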

Additional observations from a re-analysis of the deposited data

How the results depend on the processing

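Of 17 fits with another choice and 1 other threshold, counts of calls changed most. Without limma's variance trend 33 genes were lower, 7 higher and 0 members called. A block on replicate number gave 608 lower and 467 higher genes, though libraries of the same number correlated at −0.094, 0.25 and 0.15 after removing group means. DESeq2 gave 655 and 671 with 4 members, and an adjusted *P* under 0.1 gave 449 and 521. With 1 library left out, lower genes ran from 128 to 547, higher genes from 98 to 445, called members from 0 to 1, separate lower members from 21 to 57, and the large minus small median from −0.025 to 0.0090. Members below 0 numbered 65 to 76 over all fits, with a median log2 fold change from −0.21 to −0.096. Signs changed for these named members: *Mrpl23* (−0.030 with centring, −0.0053 in edgeR, −0.0067 in DESeq2, −0.10 to 0.10 with 1 library left out), *Mrpl44* (−0.020 with centring, −0.030 to 0.052), *Mrps31* (−0.0026 with quantile normalization, −0.0096 with centring, −0.069 to 0.13), *Mrpl9* (0.028 with quantile normalization, 0.051 with the length and GC trend removed, −0.041 to 0.046), *Mrpl45* (0.015 with quantile normalization, −0.066 to 0.024), and, with 1 library left out, *Mrps21* (−0.078 to 0.19), *Mrpl33* (−0.088 to 0.26), *Mrpl43* (−0.19 to 0.0044) and *Mrps5* (−0.092 to 0.0049). The stalk genes *Mrpl11* and *Mrpl53* also changed sign without *Irf1-/-* replicate 2, which left 3 of 5 stalk genes below 0. The cause was not tested. With 3 mice a group and members differing by a median of −0.16, limma called 1. Transcript levels do not give protein levels or assembled ribosomes.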
